A study of Mus musculus with 2 samples.

Results

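The genes described here copy DNA and supply its building blocks: 44 genes for origin licensing, the replicative helicase, the DNA polymerases, the sliding clamp and deoxynucleotide synthesis. They were taken by symbol from an expression table of 57011 labels, and all 44 were listed. Of these, 38 had a label of their own and 6 stood only in a locus merged with other genes (MCM8, GINS2, POLA2, POLD1, PRIM1 and FEN1). RNA had been sequenced from 2 patient-derived xenografts, human tumors grown in immunodeficient mice. The metastatic xenograft was a gastroenteropancreatic neuroendocrine tumor grown in the peritoneal cavity of an athymic nude (Foxn1nu) mouse. The primary xenograft was a tumor of the same type grown in the flank of a mouse of the same strain. The labels list no treatment for either. Each group was 1 library, so no difference has a replicate check and none was tested, and origin and site of growth cannot be told apart. The sample titles share a code, but no label says outright that 1 patient gave both tumors. Nude mice lack mature T cells but keep other host cells, and mouse fragments in the RNA may have been assigned to human genes, which was not tested. The RNA was bulk RNA of dissociated tumor cell pellets, in which more cells of a type and more RNA per cell cannot be told apart.

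Chromosome replication is prepared in G1, when the origin recognition complex, CDC6 and CDT1 load the ring-shaped MCM helicase onto DNA. In S phase the kinase CDC7, CDC45 and the GINS complex turn the loaded rings into moving helicases. Primase and DNA polymerase alpha then start each strand, and polymerases epsilon and delta extend it on the PCNA clamp. Most of these genes are transcribed by E2F factors as cells enter the cycle, so their RNA levels are widely read beside proliferation.

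Values are the authors' FPKM, fragments scaled by transcript length and by the number of mapped fragments, which can be compared between genes of different length. The deposited values summed to 885319 FPKM in the metastatic and 784987 FPKM in the primary library. Log2 ratios are metastatic over primary after adding 1 FPKM to each value, which understates differences of low genes, and "2-fold" refers to that scale. Over 13811 labels of at least 1 FPKM in a library, called expressed here, the median log2 ratio was 0.03. Setting each library to the same sum moved that median to -0.13. Each ratio was therefore also computed under 4 scalings, and the gap to the median of all expressed genes is given for groups.

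The replication genes stood modestly higher in the metastatic xenograft, and few differed strongly. Their median log2 ratio was 0.39, which was 0.35 above that of all expressed genes and between 0.35 and 0.36 above it under every scaling. Each scaling multiplies a whole library by 1 factor and shifts both medians alike, so it could hardly move this gap and is no check on it. Of the 44, 37 (84.1%) had a log2 ratio above 0, against 51.8% of expressed genes. These counts take each of the 6 merged loci at the value of the whole locus. Of the 38 members with labels of their own, 31 were above 0. At a 1.5-fold difference 17 members (38.6%) were higher, against 21.8% of expressed genes, and 1 member was lower, against 20.0%. At a 2-fold difference only 3 members, MCM3, CDC45 and PCNA, were higher (6.82%), against 9.22% of expressed genes, and 0 were lower, against 9.35%. The excess over the background thus lay in differences below 2-fold, both under and over 1.5-fold, and not in larger ones. CDC6, MCM4 and TYMS lay just under the 2-fold line, at 0.99, 0.99 and 0.97. CDC6 differed 2.10-fold in plain FPKM and fell short only through the added 1 FPKM. With libraries set to the same sum, 33 members were above 0 against 43.0% of expressed genes, 11 were at least 1.5-fold higher against 16.7%, and 2 were at least 2-fold higher against 7.17%. In that scaling PCNA, at 0.88, dropped below 2-fold, and MCM3 and CDC45 did not.

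**Figure D1:**
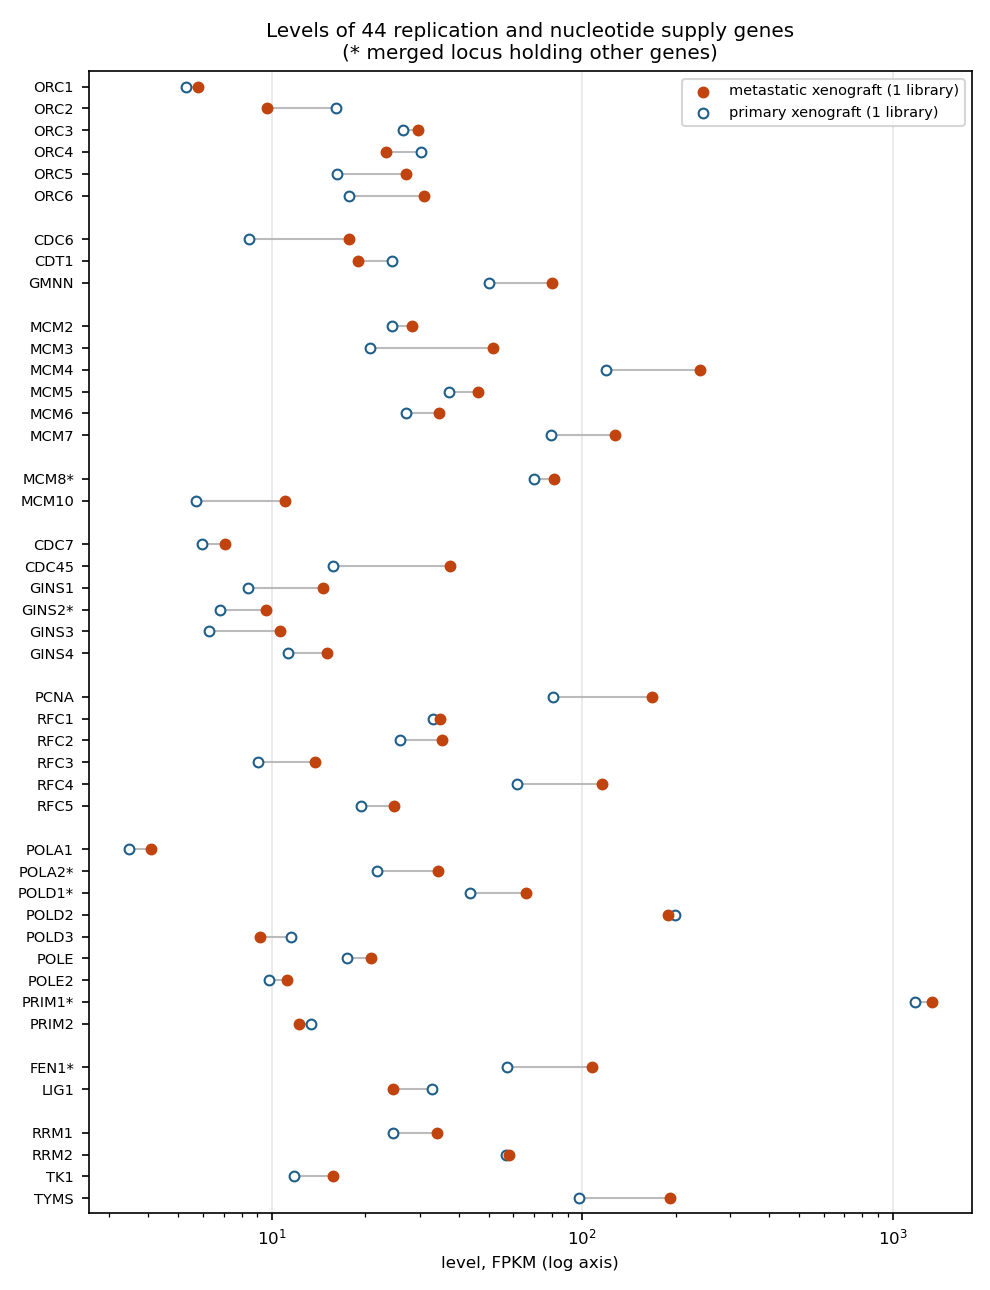
Level of each of the 44 genes in FPKM on a log axis, with filled points for the metastatic and open points for the primary xenograft, 1 library each; an asterisk marks a merged locus. Filled points lie to the right for 37 genes, with wide gaps for MCM3, CDC45, PCNA, CDC6, MCM4 and TYMS.

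Members spanned a wide range of levels. Among the 38 with labels of their own, values ran between 3.47 FPKM, for POLA1 in the primary xenograft, and 239 FPKM, for MCM4 in the metastatic xenograft. The median over all 44 was 28.9 FPKM in the metastatic and 23.2 FPKM in the primary library, while expressed genes as a whole had medians of 9.99 and 10.5 FPKM. The order of the levels was much the same in both, with a Spearman coefficient of 0.90 across the 38 genes, which are not independent replicates. Log2 ratios showed little relation to the mean level (Spearman 0.24).

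The origin recognition complex, which marks the sites where replication can start, was split. ORC6 had 30.9 FPKM in the metastatic and 17.8 FPKM in the primary xenograft, and ORC5 had 27.1 and 16.3 FPKM. ORC2 went the other way, at 9.68 FPKM in the metastatic and 16.2 FPKM in the primary xenograft, a log2 ratio of -0.69 that was the lowest of all 44 members. ORC4 was also lower, at 23.4 and 30.4 FPKM. ORC3, at 29.5 and 26.4 FPKM, and ORC1, the subunit whose level varies through the cell cycle, at 5.80 and 5.31 FPKM, were nearly level. The ratios of ORC1 and ORC3 turned below 0 when libraries were set to the same sum, at -0.04 and -0.01. The summed level of the complex was 126 FPKM in the metastatic and 112 FPKM in the primary library, but its make-up differed. ORC2 and ORC4 made up 7.66% and 18.5% of the sum in the metastatic xenograft, against 14.4% and 27.0% in the primary, and ORC5 and ORC6 made up 21.4% and 24.4%, against 14.5% and 15.8%.

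The loading factors differed in direction. CDC6, an ATPase that joins the origin complex to recruit the helicase, had 17.8 FPKM in the metastatic and 8.45 FPKM in the primary xenograft. CDT1, its partner in loading, had 18.9 and 24.4 FPKM, a log2 ratio of -0.35. GMNN encodes geminin, the inhibitor that binds CDT1 and prevents a second round of licensing, and had 80.2 FPKM in the metastatic and 50.1 FPKM in the primary xenograft. The level of GMNN was thus 4.24 times that of CDT1 in the metastatic and 2.05 times in the primary library. The level of CDC6 was 0.941 times that of CDT1 in the metastatic and 0.346 times in the primary library. These quotients are taken within a library and do not depend on how libraries are scaled. Log2 ratios fell with transcript length across genes (Spearman -0.27), and the quotients here and below were not adjusted for that.

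The 6 subunits of the MCM helicase were all higher in the metastatic xenograft, under no scaling and under each of the 4 scalings, but by unequal amounts. Of expressed genes, 51.8% had a log2 ratio above 0 without scaling and 43.0% with libraries set to the same sum. MCM3 had 51.6 FPKM in the metastatic and 20.7 FPKM in the primary xenograft, a log2 ratio of 1.28 and the highest of all members. MCM4 had 239 and 120 FPKM, and MCM7 had 128 and 79.4 FPKM. The other subunits were closer together. MCM6 had 34.7 FPKM in the metastatic and 27.0 FPKM in the primary xenograft, MCM5 had 46.3 and 37.4 FPKM, and MCM2 had 28.3 and 24.4 FPKM. MCM2 was the nearest to no difference, with a log2 ratio of 0.20, or 0.04 with libraries set to the same sum.

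The helicase is built from 1 copy of each subunit, and the RNA levels were far from equal in either library. The highest subunit stood 8.44-fold above the lowest in the metastatic and 5.78-fold in the primary xenograft. MCM4 alone made up 45.3% of the summed level of the subunits in the metastatic and 38.8% in the primary library. MCM3 was the lowest of the 6 in the primary xenograft, while in the metastatic only MCM4 and MCM7 stood above it. Its level was 1.11 times that of MCM5 in the metastatic and 0.555 times in the primary library. The summed level was 528 FPKM in the metastatic and 309 FPKM in the primary library, a ratio of 1.71 to which MCM4 contributed most.

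Of the other MCM proteins, MCM10, which binds the assembled helicase and is needed for it to start unwinding, had 11.1 FPKM in the metastatic and 5.73 FPKM in the primary xenograft. MCM8 acts in recombination repair more than in bulk replication. It was listed only in a locus with CRLS1, at 81.5 and 70.3 FPKM, and its own level cannot be read from that value.

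**Figure D2:**
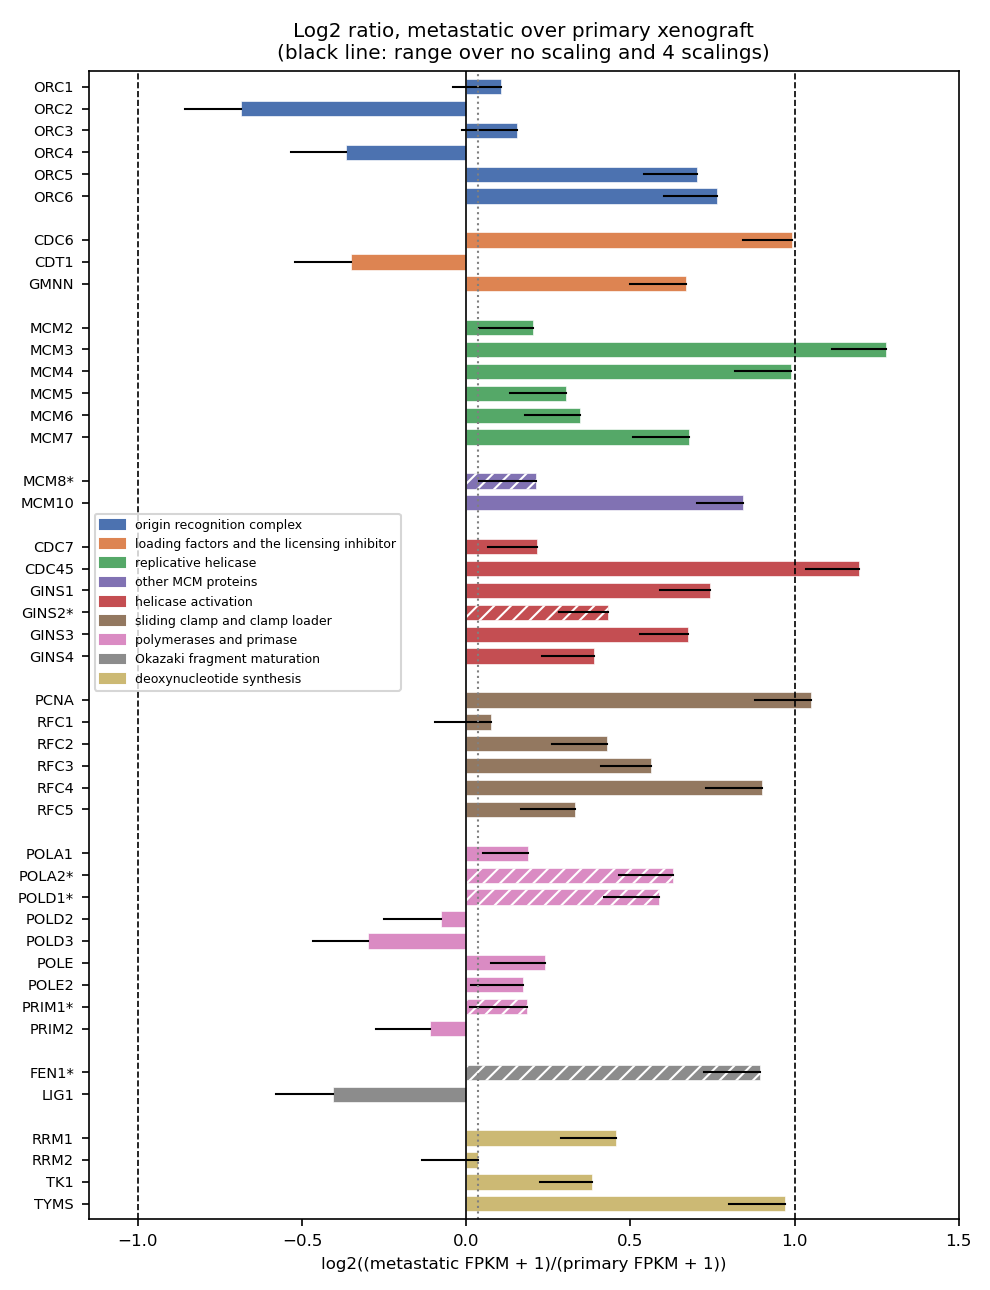
Log2 ratio of each gene, metastatic over primary, as bars coloured by role, with black lines for the range over no scaling and 4 scalings, dashed lines at 2-fold and a dotted line at the median of all expressed genes (0.03); hatched bars and asterisks mark merged loci. MCM3 and CDC45 pass the 2-fold line throughout, PCNA only without scaling, and ORC2 is the lowest at -0.69.

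Genes that activate the helicase were higher in 6 of 6 cases, against 51.8% of expressed genes above 0, with GINS2 counted at its merged locus. Their median log2 ratio was 0.55, or 0.41 with libraries set to the same sum. Without scaling it stood 0.52 above that of all expressed genes. CDC45, the helicase cofactor that travels with each fork, had 37.5 FPKM in the metastatic and 15.8 FPKM in the primary xenograft, a log2 ratio of 1.20. The GINS subunits, which join CDC45 to the MCM ring, were higher by smaller amounts. GINS1 had 14.7 FPKM in the metastatic and 8.37 FPKM in the primary xenograft, GINS3 had 10.6 and 6.28 FPKM, and GINS4 had 15.1 and 11.3 FPKM. GINS2, in a locus with C16orf74, had 9.56 and 6.83 FPKM. CDC7, the kinase that phosphorylates the MCM ring, was slightly higher at 7.09 and 5.97 FPKM, a log2 ratio of 0.21. DBF4, its activating subunit and not one of the 44, was near level at 22.2 and 21.5 FPKM. CDC45 was 1.32 times the level of MCM2 in the metastatic and 0.647 times in the primary library.

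The clamp and its loader were higher in 6 of 6 cases, against 51.8% of expressed genes above 0. With libraries set to the same sum, where 43.0% of expressed genes were above 0, RFC1 turned below 0 and 5 of 6 were higher. The count was also 5 of 6 with scaling by the 75th percentile. PCNA, the ring that holds the polymerases on DNA and a common marker of proliferating cells, had 168 FPKM in the metastatic and 80.7 FPKM in the primary xenograft, a log2 ratio of 1.05. Among the loader subunits RFC4 was the most abundant in both libraries and had the highest ratio, at 116 FPKM in the metastatic and 61.5 FPKM in the primary xenograft. RFC3 had 13.8 and 9.03 FPKM, RFC2 had 35.3 and 26.0 FPKM, and RFC5 had 24.7 and 19.5 FPKM. RFC1, the large subunit that makes the loader specific for PCNA, was level at 34.9 and 33.1 FPKM. RFC4 was 3.31 times the level of RFC1 in the metastatic and 1.86 times in the primary library. Of pseudogene labels formed from a member's symbol, 12 were listed for 7 members, PCNA among them, and the highest of their values was 0.190 FPKM; how reads shared by such copies were placed is not given in the sources used here.

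Polymerase and primase genes differed little as a group. Over the 6 with labels of their own the median log2 ratio was 0.05, against 0.18 with the 3 merged loci counted. Of the 9, 0 were 2-fold different, against 9.22% of expressed genes higher and 9.35% lower by that much. With libraries set to the same sum the median of the 9 was 0.01. POLA1, the catalytic subunit of polymerase alpha, had 4.09 FPKM in the metastatic and 3.47 FPKM in the primary xenograft. POLE, the catalytic subunit of the leading-strand polymerase epsilon, had 20.9 and 17.5 FPKM, and its partner POLE2 had 11.2 and 9.84 FPKM. Of the polymerase delta genes, which serve the lagging strand, the small subunit POLD2 was abundant and nearly level at 189 FPKM in the metastatic and 199 FPKM in the primary xenograft. POLD3 had 9.19 and 11.5 FPKM, and the primase subunit PRIM2 had 12.3 and 13.4 FPKM. Both were lower under every scaling, as was POLD2, by a small amount (log2 ratio -0.08 without scaling). The 6 genes with labels of their own summed to 246 FPKM in the metastatic and 255 FPKM in the primary library.

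The other polymerase genes could be read only through merged loci. The locus of POLD1, the catalytic subunit of polymerase delta, also holds the lymphoid factor gene SPIB and had 65.8 FPKM in the metastatic and 43.5 FPKM in the primary xenograft. The locus of POLA2, with CDC42EP2, had 34.4 and 21.9 FPKM. The locus of PRIM1, the catalytic primase subunit, had 1339 and 1178 FPKM. It holds NACA, a very abundant gene of nascent protein handling, and says nothing about PRIM1 itself.

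Of the genes that join the lagging-strand pieces, only LIG1 had a label of its own. FEN1, the nuclease that trims the flaps between them, was listed in a locus with the fatty acid desaturase gene FADS2, at 107 FPKM in the metastatic and 57.3 FPKM in the primary xenograft, and its own level cannot be read from that value. LIG1, the ligase that seals them, had 24.6 and 32.9 FPKM, a log2 ratio of -0.41. PCNA, which recruits LIG1, stood at 6.84 times the level of LIG1 in the metastatic and 2.45 times in the primary library.

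Among enzymes of deoxynucleotide supply, TYMS, the thymidylate synthase that is the target of fluoropyrimidine drugs, had 192 FPKM in the metastatic and 97.4 FPKM in the primary xenograft. ENOSF1, a gene that overlaps TYMS on the opposite strand, was level at 95.6 and 96.2 FPKM; whether fragments were assigned by strand is not given in the sources used here. TK1, the salvage kinase for thymidine, had 15.7 FPKM in the metastatic and 11.8 FPKM in the primary xenograft. Ribonucleotide reductase makes deoxynucleotides from ribonucleotides. Its large subunit RRM1 had 34.2 FPKM in the metastatic and 24.7 FPKM in the primary xenograft, a log2 ratio of 0.46, while RRM2, its S-phase partner, was nearly level at 58.3 and 56.9 FPKM. RRM2 turned below 0 in each of the 4 scalings, to -0.14 with libraries set to the same sum. RRM2 was 1.71 times the level of RRM1 in the metastatic and 2.31 times in the primary library.

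**Figure D3:**
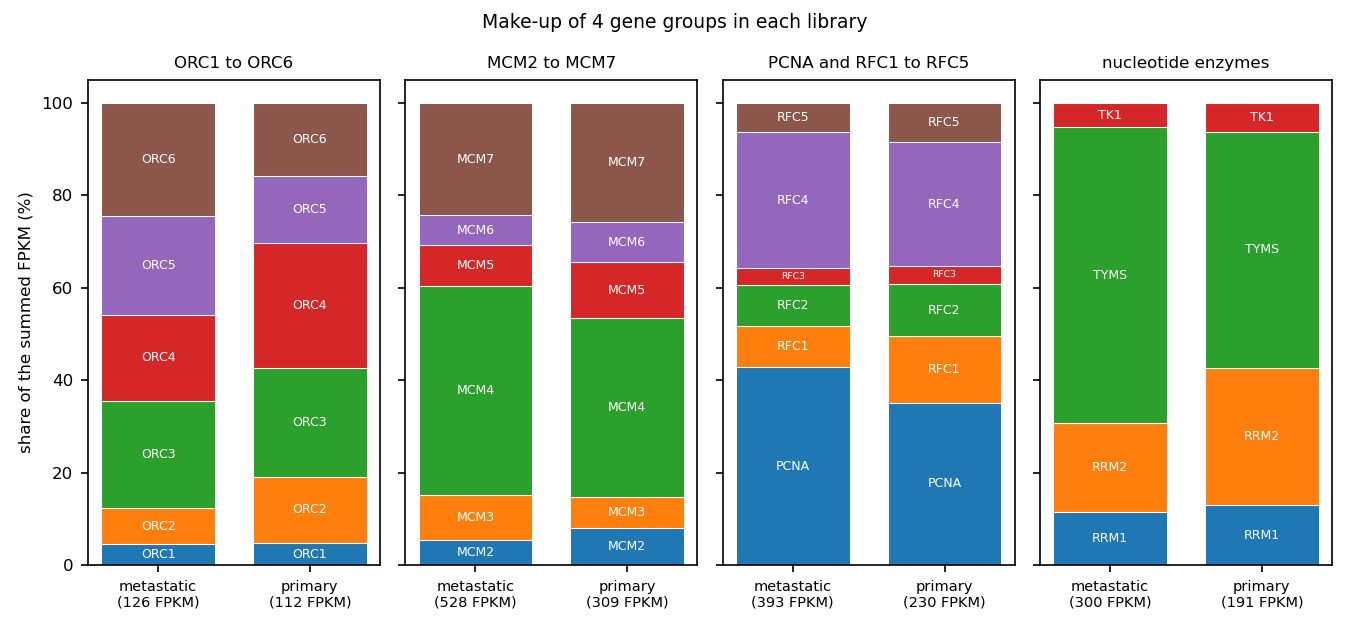
Share of each gene in the summed FPKM of its group, for 4 groups, metastatic on the left and primary on the right of each panel, 1 library each. ORC2 and ORC4 take smaller shares of the origin complex in the metastatic library, MCM4 takes 45.3% against 38.8% of the helicase, and TYMS takes 64.0% against 51.1% of the nucleotide enzymes.

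A wider set of 39 replication genes outside the 44 was counted in the same way. Of 38 expressed, 5 were at least 2-fold higher, against 9.22% of expressed genes, 0 were at least 2-fold lower, against 9.35%, and the median log2 ratio was 0.36. A count of 5 among 38 lies not far from the 9.22% of expressed genes. With no limit on size, 28 of the 38 had a log2 ratio above 0, against 51.8% of expressed genes. CLSPN, encoding the checkpoint adaptor claspin, had 11.8 FPKM in the metastatic and 2.50 FPKM in the primary xenograft. TIPIN, a fork protection factor that works with claspin, had 17.7 and 7.39 FPKM. RNASEH2B, a subunit of the enzyme that removes ribonucleotides from DNA, had 36.9 and 16.4 FPKM, and the catalytic subunit RNASEH2A, in a locus with THSD8, had 324 and 160 FPKM. LRWD1, an origin complex partner, had 30.1 and 14.0 FPKM. Only CLSPN and TIPIN were still past 2-fold with libraries set to the same sum, where 7.17% of expressed genes were at least 2-fold higher.

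A wider set of nucleotide genes held few 2-fold differences. Of 32 expressed labels, 1 was at least 2-fold higher, against 9.22% of expressed genes, 2 were at least 2-fold lower, against 9.35%, and the median log2 ratio was 0.16, or -0.01 with libraries set to the same sum. CTPS1, which makes CTP, had 46.2 FPKM in the metastatic and 11.2 FPKM in the primary xenograft, while its paralog CTPS2 had 10.4 and 16.0 FPKM. RRM2B, the p53-inducible small subunit of ribonucleotide reductase used outside S phase, had 7.16 FPKM in the metastatic and 26.9 FPKM in the primary xenograft, a log2 ratio of -1.77. ADSSL1, of adenylate synthesis, had 6.32 and 14.9 FPKM. DUT, which removes dUTP, had 71.2 FPKM in the metastatic and 48.0 FPKM in the primary xenograft. IMPDH1, at 105 and 52.3 FPKM, and the merged locus of NME1 and NME2, at 1144 and 572 FPKM, fell short of 2-fold only through the added 1 FPKM.

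The replication genes were set beside lists for the steps before and after S phase. Among 21 expressed E2F and cyclin regulators, 3 were at least 2-fold higher, against 9.22% of expressed genes, 0 were at least 2-fold lower, against 9.35%, and the median was 0.30. A count of 3 is within about 1 gene of that background. CDC25A, the phosphatase that activates CDK2, had 22.3 FPKM in the metastatic and 5.41 FPKM in the primary xenograft. E2F1 had 11.7 and 4.59 FPKM and CCNE2 had 4.83 and 1.501 FPKM, and CCNE1, at 27.6 and 14.1 FPKM, lay just under 2-fold. Among 28 mitotic genes the median was 0.04, which was 0.01 from that of all expressed genes, and 0 were 2-fold different in either direction. At 1.5-fold, 1 of the 28 mitotic genes was higher, against 21.8% of expressed genes, and 2 were lower, against 20.0%, so both counts lay below the background. Of the 44 replication genes, 17 were higher and 1 was lower at that size. The log2 ratios of the 28 mitotic genes ran between -0.85 and 0.72. Near the middle of that range, the kinase gene CDK1 had 132 FPKM in the metastatic and 128 FPKM in the primary xenograft. CCNB1 had 196 and 182 FPKM. The proliferation marker MKI67 had 18.2 FPKM in the metastatic and 24.5 FPKM in the primary xenograft. With 1 library a group, whether the replication and mitotic lists differ was not tested.

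**Figure D4:**
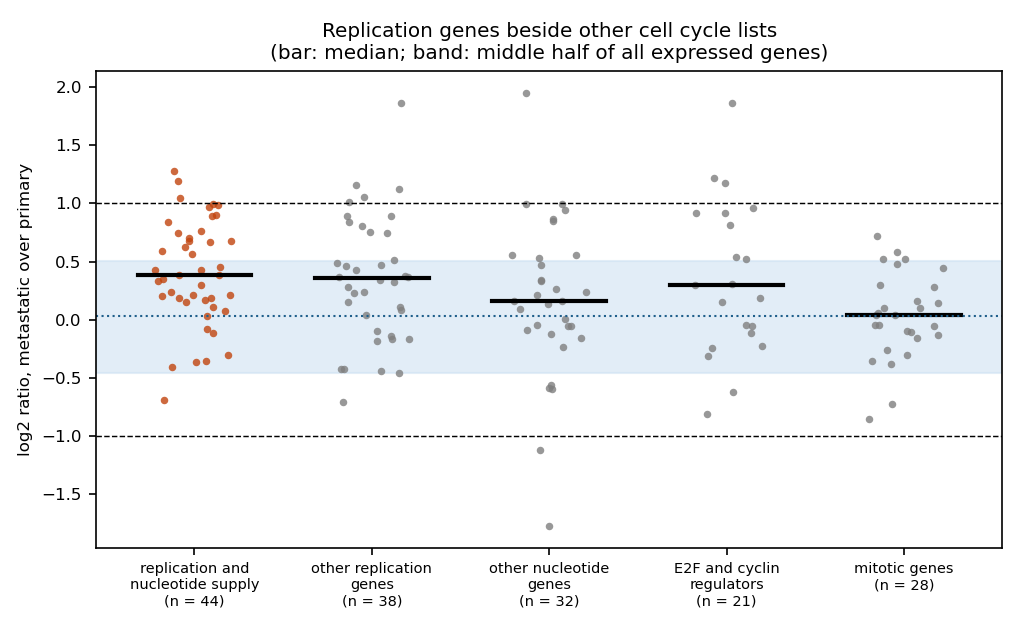
Log2 ratio, metastatic over primary, of each expressed gene or locus in 5 lists, with a black bar for the median, dashed lines at 2-fold, and a band for the middle quartiles and a dotted line for the median of all expressed genes. The medians are 0.39 for the 44 replication and nucleotide supply genes and 0.04 for the mitotic genes.

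Cell type markers, those of the tumor's own lineage among them, differed between the libraries as well, and their part in the results above was not tested. Over labels not merged with other genes, 8 fibroblast markers summed to 160 FPKM in the metastatic and 523 FPKM in the primary library, with 4 at least 2-fold lower and 1 higher. Most of that sum was COL1A2, at 149 FPKM in the metastatic and 474 FPKM in the primary xenograft. The 6 endothelial markers summed to 3.59 and 25.5 FPKM, of which EGFL7 gave 1.58 and 19.1 FPKM, with KDR at 0 in both. PECAM1, CDH5 and VWF were below 1 FPKM in both libraries. The 5 leukocyte markers summed to 12.6 and 4.66 FPKM, of which LYZ gave 11.97 and 2.72 FPKM, with AIF1 at 0 in both. Low values of CSF1R (0.243 and 1.06 FPKM), CD14 (0.341 and 0.767 FPKM) and PTPRC (0.0403 and 0.111 FPKM) went the other way. The 4 erythroid markers summed to 99.9 and 36.0 FPKM, nearly all of it HBB, and the 5 epithelial markers to 2469 and 1295 FPKM. The 7 neuroendocrine markers with labels of their own summed to 811 and 280 FPKM. UCHL1 gave most of it, at 705 FPKM in the metastatic and 225 FPKM in the primary xenograft. UCHL1 and DDC (103 and 48.1 FPKM) passed 2-fold upward, against 9.22% of expressed genes, and INSM1 passed it downward, against 9.35%. CHGB, at 0.336 and 1.64 FPKM, fell just short of that downward, with a log2 ratio of -0.98. Merged loci differed in direction. That of ENO2 with LRRC23 had 23.8 and 81.6 FPKM, a log2 ratio of -1.74, and that of SSTR2 with COG1 had 34.3 and 21.9 FPKM. Among the defining neuroendocrine markers, CHGA was listed at 0 in both libraries and INSM1 stood at 0.271 and 3.54 FPKM. SYP stood at 1.96 FPKM in the metastatic and 1.63 FPKM in the primary xenograft. An exact 0 in this table can be a failed estimate, as LDHA, a gene of most cells, was also listed at 0 in both.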

How the data were processed

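One table of 62573 rows gives a deposited FPKM value per row for the metastatic and the primary library. Per the submitters' processing notes, the human build GRCh38, Cufflinks 2.2.1, STAR 2.7.6a and bcl2fastq 2.18.0.12 were used; their roles are not named there. The labels give mouse as the organism. Not given in the sources used here are the annotation, any filter and what was done with mouse reads. No counts were used, so depth is unknown and no interval is given.

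Rows of 1 label were summed, and a locus naming several genes was counted once and marked as merged. Log2 ratios used a pseudocount of 1 FPKM and labels of at least 1 FPKM in a library, and a gene was counted at a 2-fold difference. No test was run, with 1 library a group. The 44 members and all lists were chosen with earlier results of these data known. All members are given. Of the wider replication, nucleotide, mitotic and E2F lists, genes at least 2-fold different are given, plus MKI67, E2F1, CCNE1, CCNE2, DBF4 and DUT, except 1 gene that is not reported here. Cell type markers are given as sums with a few examples. CTPS2, IMPDH1, the locus of NME1 and NME2, CDK1, CCNB1, ENOSF1 and the marker examples were chosen after their values were seen. The calculation was tested on simulated data. Alternatives were pseudocounts, filters, thresholds, 4 scalings, the treatment of repeated labels and of merged loci and, added after seeing the data, removal of a transcript length trend. Python 3.11.15, numpy 2.4.6, pandas 2.3.3 and scipy 1.17.1 were used.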

Additional observations from a re-analysis of the deposited data

How the results depend on the processing

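No paired analysis was possible because each group was 1 library. The members' median log2 ratio ran between 0.23 and 0.41 over the alternatives that give one, above 0 in all. The gap to all expressed genes could hardly move with scaling, which shifts both medians alike. At 1.5-fold, counts higher and lower were 17 and 1 for the members, 11 and 1 for the wider replication genes, 7 and 2 for the E2F and cyclin regulators, 1 and 2 for the mitotic genes, 3004 and 2767 for all genes and 6 and 3 for the wider nucleotide genes. At 4-fold, 0 members and 0 genes of those lists passed, against 165 higher and 259 lower of all genes. The wider nucleotide genes at least 2-fold higher were 2 with a pseudocount of 0.5 FPKM and 3 with 0.1 FPKM. With libraries scaled to 1 sum, with or without short genes, 2 wider replication genes were 2-fold higher and 1 mitotic gene was 2-fold lower; with the 75th percentile 3 wider replication genes were higher. Of genes called 2-fold in either direction, 49.6% were higher without scaling and 36.2% with 1 sum. A filter of 5 FPKM left 859 genes 2-fold lower. The median of all genes was then 0.08, against 0.03 in the main setting, and that of the members was 0.39, so the gap was smaller. Without merged loci, the Okazaki fragment group was LIG1 alone, at -0.41, and the median of the polymerase and primase genes was 0.05. Ratios fell with transcript length (Spearman -0.27 across 9338 genes, lengths from mouse transcripts of the same symbol); with that trend removed the 38 unmerged members had a median of 0.33, against 0.37 before. Unknown depth limits all values, most for low genes such as POLA1 and ORC1.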
